A study of Homo sapiens with 10 samples.

Results

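The Notch genes described here are 3 receptors (NOTCH1, NOTCH2 and NOTCH3), 2 ligands of the Jagged type (JAG1 and JAG2), the transcriptional partners RBPJ and MAML1, the targets HES1 and HEY1, and NUMB, an inhibitor of the pathway. They were chosen by name, with earlier results of these data known, and found by their symbol in a table of 13527 features. Of the 10 genes, 9 had a row, and HEY1 was not analysed here. RNA-seq was measured in the human DU145 line, established from a brain metastasis of prostate cancer. Cells with a scrambled control hairpin (shCon, 3 libraries) were compared with cells carrying a short hairpin RNA against SOX4, which encodes an HMG-box transcription factor of the SRY-related family (shSOX4, 3 libraries). No treatment is given for either group, and the labels state neither the hairpin's sequence nor whether a line was grown from a single clone. The other 4 libraries of the series, ATAC-seq of DU145 cells with an empty vector or with SOX4 overexpression, were not analysed here. The series asks what SOX4 does in neuroendocrine differentiation of prostate cancer cells.

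Notch receptors sit in the cell membrane and are switched on by Delta or Jagged ligands on a neighbouring cell. An ADAM protease and then the gamma-secretase complex cut the bound receptor, and its freed intracellular domain enters the nucleus, where it joins the DNA-binding protein RBPJ and a Mastermind coactivator such as MAML1. Genes of the HES and HEY families, which encode transcriptional repressors, are the best known targets.

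Libraries held 31189910 to 43361609 counts. The first principal component of log2 CPM (counts scaled to library size, here by the TMM method) separated the groups with 66.3% of the variance, and the second, with 15.7%, set shCon 3 and shSOX4 1 apart from the other 4 libraries. SOX4 itself stood at 12.9, 10.1 and 8.48 CPM in shCon 1, 2 and 3 and at 4.55, 6.44 and 6.01 CPM in shSOX4 1, 2 and 3. The groups did not overlap, and SOX4 fell by 0.89 (log2; SE 0.236, adjusted p = 0.0111, edgeR quasi-likelihood test with Benjamini-Hochberg adjustment over all features, as everywhere below). Without shCon 1, the library with the most SOX4, the value was -0.71 and did not pass (adjusted p = 0.0598, edgeR). Of the epithelial markers, 5 of 6 had a row, with a summed level of 2960 to 4390 CPM in shCon and 6810 to 7710 CPM in shSOX4. That sum is carried by the keratin genes KRT8 (log2 1.33) and KRT18 (1.03), while EPCAM (-0.83, adjusted p = 0.0279, edgeR) and CDH1 (-1.28, adjusted p = 0.0029, edgeR) fell and KRT19 (-0.39) did not pass. Of 6 leukocyte markers 2 had a row (97.4 to 116 CPM summed in shCon, 46.3 to 56.5 in shSOX4, nearly all of it CD68), of 4 endothelial markers 1 (0.525 to 0.942 CPM in shCon, 4.70 to 6.62 in shSOX4), and of 5 fibroblast markers 3 (1.69 to 2.48 CPM in shCon, 9.55 to 16.0 in shSOX4). The endothelial gene, CDH5, and the fibroblast gene LUM were below 1 CPM in every shCon library. Features entered the table at 1 CPM in at least 3 libraries, so both entered through shSOX4 alone. Their higher level there was set by that entry level and is no evidence of a shift. In shCon 1, 2 and 3 PDGFRB had 0.416, 1.05 and 0.612 CPM and COL1A1 had 1.18, 1.24 and 1.87 CPM. The part of these marker shifts in the results below was not tested.

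NOTCH2 alone of the 9 measured genes passed the test, and it rose 2.06-fold in shSOX4 cells. NOTCH3 had a negative log2 fold change (-0.84) that did not pass, and NOTCH1, both ligands, RBPJ, MAML1, HES1 and NUMB did not pass. Of all 13527 features, 32.8% were called changed (17.0% up and 15.8% down at an adjusted p under 0.05), so 1 of 9 (11.1%) is below the share found among all features. The median log2 fold change of the 9 genes was 0.14, against -0.01 over all features. All 9 genes had at least 1 CPM in all 6 libraries, so none entered the table through 1 group alone.

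**Figure D1:**
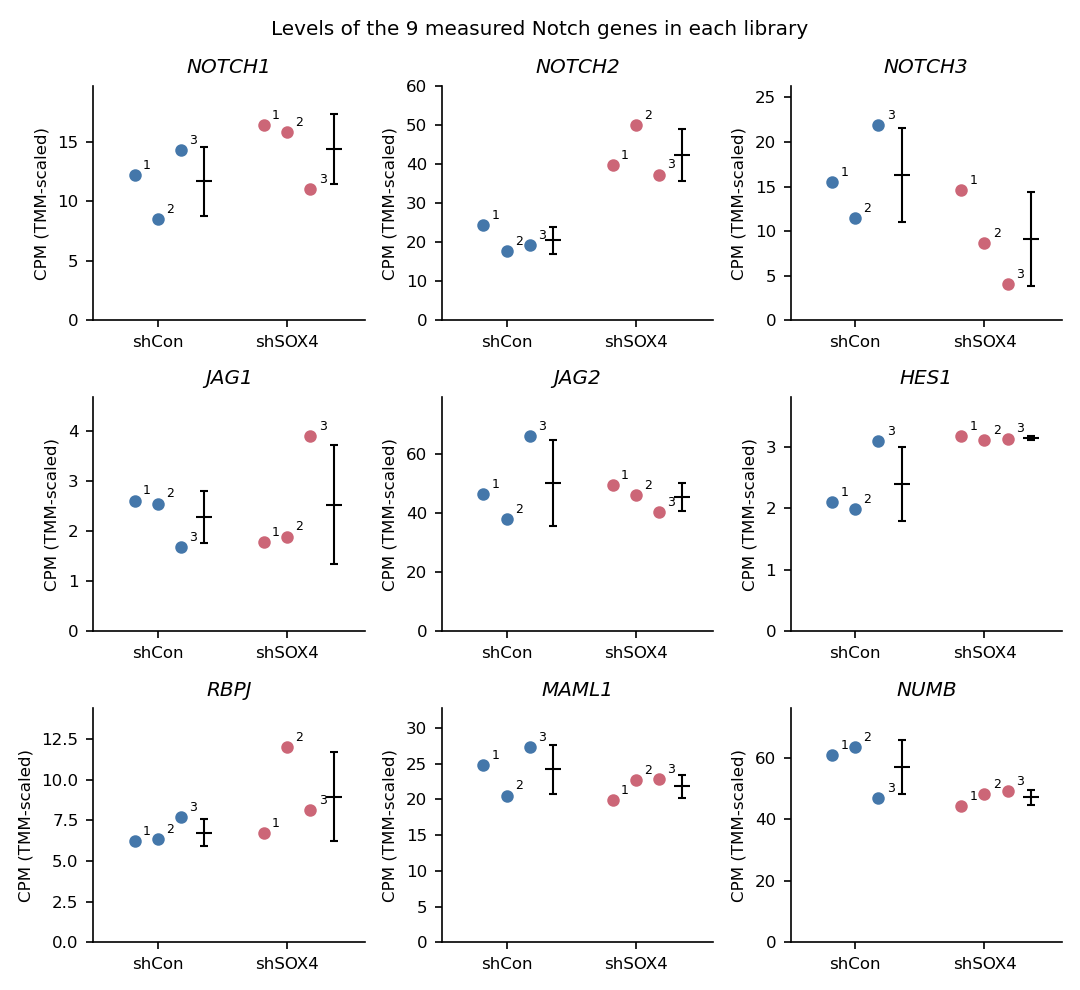
TMM-scaled CPM (vertical axis, from 0) of the 9 measured Notch genes in shCon (blue) and shSOX4 (red) libraries, with replicate numbers beside the points and the mean ± SD of 3 libraries in black. NOTCH2 lies between 17.8 and 24.4 CPM in shCon and between 37.3 and 49.98 CPM in shSOX4, while the groups overlap for every other gene shown except HES1.

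Among the receptors, NOTCH2 had 24.4, 17.8 and 19.2 CPM in shCon 1, 2 and 3 and 39.7, 49.98 and 37.3 CPM in shSOX4 1, 2 and 3. Every shSOX4 library was above every shCon library, a pattern that 23.1% of all features show upward and 23.9% downward. The mean was 20.5 ± 3.44 CPM in shCon and 42.3 ± 6.74 CPM in shSOX4 (SD, n = 3 per group), and the log2 fold change was 1.05 (SE 0.197; adjusted p = 0.00144, edgeR), or 2.06-fold with a 95% interval from 1.54 to 2.76. In bulk RNA, more cells with NOTCH2 and more NOTCH2 RNA per cell cannot be told apart. The call held without each library in turn (0.91 to 1.19, adjusted p of 0.000406 to 0.0143, edgeR) and in the test against a 1.5-fold change (adjusted p = 0.0464, edgeR). For NOTCH2, the authors' deposited table gives a log2 fold change of 1.004 (adjusted p = 2.54e-06).

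NOTCH2 has close human relatives that copy its first exons, and how the counting divided reads between them was not found in the sources used here. The relative with a row of its own, NOTCH2NLA, had 26.4 ± 4.29 CPM in shCon and 38.7 ± 3.85 CPM in shSOX4 (SD, n = 3 per group; log2 0.55, adjusted p = 0.0376, edgeR). The NOTCH2 value is therefore uncertain in how reads were shared, and both rows were also added together. The sum was 53.6, 39.3 and 47.7 CPM in shCon 1, 2 and 3 and 81.0, 84.2 and 77.8 CPM in shSOX4 1, 2 and 3. The groups again did not overlap, and the sum rose by 0.79 (log2; SE 0.173, adjusted p = 0.00383, edgeR).

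NOTCH3 had 15.5, 11.5 and 21.9 CPM in shCon 1, 2 and 3 and 14.6, 8.67 and 4.08 CPM in shSOX4 1, 2 and 3. The lowest values were those of shSOX4 2 and 3, but shSOX4 1 lay inside the shCon range, and the spread within shSOX4 (57.8% of the mean) was the widest of any of the 9 genes. Its log2 fold change was -0.84 (SE 0.357, 95% interval -1.60 to -0.08, adjusted p = 0.0838, edgeR). For NOTCH3 the authors deposited a log2 fold change of -0.61 (adjusted p = 0.242). DESeq2 run here gave -0.83 (adjusted p = 0.242, DESeq2). Both libraries set apart by the second component held the highest NOTCH3 of their groups, shCon 3 by 0.71 and shSOX4 1 by 1.28 on the log2 scale over the other libraries of the same group. Without shSOX4 1 the value was -1.34 (adjusted p = 0.00106, edgeR), without shCon 2 it was -1.04 (adjusted p = 0.0365, edgeR) and with shCon 3 and shSOX4 1 both left out it was -1.08 (adjusted p = 0.0057, edgeR), whereas without shSOX4 3 it was -0.48 (adjusted p = 0.274, edgeR) and without shCon 3 it was -0.57 (adjusted p = 0.243, edgeR). NOTCH1, which did not pass, had 12.2, 8.52 and 14.3 CPM in shCon and 16.4, 15.8 and 10.98 CPM in shSOX4, with overlapping groups (log2 0.30, SE 0.236, adjusted p = 0.341, edgeR). Its value was 0.12 without shCon 2 and 0.47 without shCon 3, and equally without shSOX4 3, and did not pass in any of the 6 fits with a library removed (adjusted p of 0.153 to 0.767, edgeR).

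FPKM values, which the authors scaled to gene length as well as library size, allow levels of different receptors to be compared, with limits. For NOTCH3 the ratio of count to FPKM varied 1.16-fold between libraries, beyond the factor common to each library. The NOTCH2 level is uncertain in how reads were shared with NOTCH2NLA, and shares with both rows added together were not computed. In shCon the FPKM levels were 1.16 ± 0.246 for NOTCH1, 1.68 ± 0.344 for NOTCH2 and 1.76 ± 0.485 for NOTCH3 (SD, n = 3), and the last 2 do not differ beyond their spread. In shSOX4 they were 1.45 ± 0.320 for NOTCH1, 3.51 ± 0.696 for NOTCH2 and 1.02 ± 0.538 for NOTCH3 (SD, n = 3), so NOTCH2 stood highest. The shSOX4 means of NOTCH1 and NOTCH3 do not differ beyond their spread. Library by library, NOTCH1 was above NOTCH3 in shSOX4 (1.62, 1.65 and 1.08 against 1.57, 0.993 and 0.499 FPKM). In shCon NOTCH1 was below NOTCH3 (1.27, 0.874 and 1.32 against 1.74, 1.29 and 2.26 FPKM). NOTCH2 made up 40.9, 41.0 and 29.0% of the summed FPKM of the 3 receptors in shCon 1, 2 and 3 and 50.1, 62.0 and 65.6% in shSOX4 1, 2 and 3. The share of NOTCH3 was 34.2, 35.2 and 44.8% in shCon and 24.6, 14.3 and 10.9% in shSOX4.

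Neither share overlapped between the groups. The mean share of NOTCH2 was 22.3 percentage points higher in shSOX4 and that of NOTCH3 lower (difference -21.4), each with p = 0.10 in an exact two-sided permutation test, the smallest p that 3 against 3 libraries allow. Shares are parts of the same sum, so a higher NOTCH2 lowers the others, and these differences are not separate results. NOTCH1 kept close to a constant share, 25.0 ± 1.203% in shCon and 24.2 ± 0.952% in shSOX4 (SD, n = 3; exact permutation p = 0.40). The log2 ratio of NOTCH2 to NOTCH3 FPKM was 0.26, 0.22 and -0.62 in shCon 1, 2 and 3 and 1.03, 2.12 and 2.59 in shSOX4 1, 2 and 3. This ratio was not among the planned tests. It pairs the receptors with the highest and the lowest fold change and restates the shares, so it is a description only. The summed FPKM of the receptors, 4.60 ± 0.809 in shCon and 5.98 ± 1.23 in shSOX4 (SD, n = 3), overlapped between the groups (exact permutation p = 0.30).

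**Figure D2:**
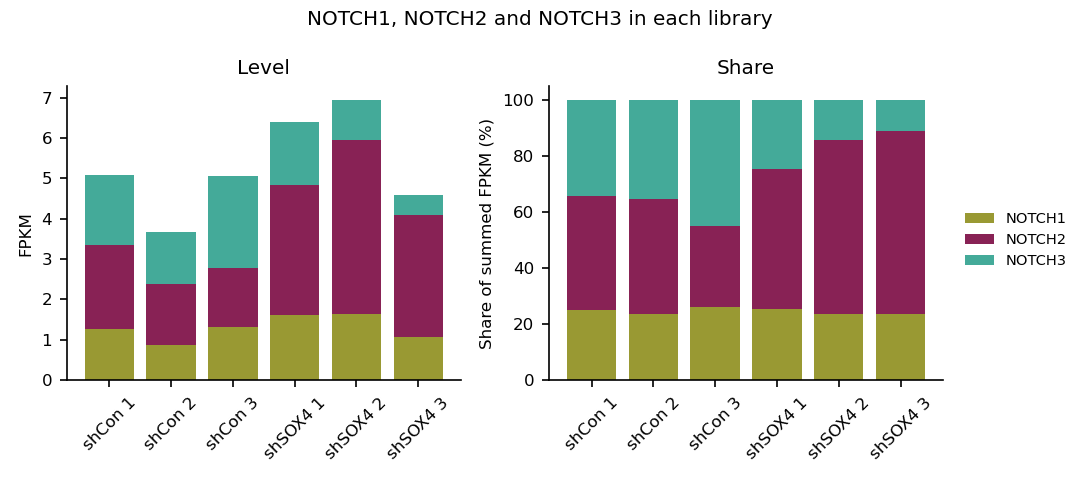
Stacked bars of the FPKM of NOTCH1, NOTCH2 and NOTCH3 in each library (left, FPKM) and of their share of the summed FPKM (right, percent). NOTCH2 takes 29.0 to 41.0% in shCon and 50.1 to 65.6% in shSOX4, NOTCH3 takes 34.2 to 44.8% and 10.9 to 24.6%, and NOTCH1 stays between 23.5 and 26.2% in all 6 libraries.

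The ligands did not pass. JAG2 was the more abundant by far, with 7.98 ± 1.78 FPKM in shCon and 7.32 ± 0.843 FPKM in shSOX4, while JAG1 had 0.359 ± 0.1003 and 0.429 ± 0.245 FPKM (SD, n = 3 per group). JAG2 levels were 46.6, 38.0 and 66.2 CPM in shCon 1, 2 and 3 and 49.7, 46.3 and 40.3 CPM in shSOX4 1, 2 and 3. All shSOX4 libraries fell inside the shCon range, and the log2 fold change was -0.15 (SE 0.209, adjusted p = 0.621, edgeR), with an interval from 0.663-fold to 1.23-fold. Without shCon 3, the library with the most JAG2, its sign turned (0.10, adjusted p = 0.692, edgeR), and again with shCon 3 and shSOX4 1 both left out (0.04, adjusted p = 0.871, edgeR).

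JAG1 had only 58 to 131 counts a library, or 2.61, 2.55 and 1.69 CPM in shCon and 1.79, 1.89 and 3.90 CPM in shSOX4. A single library, shSOX4 3, stood above the rest, and without it the log2 fold change turned from 0.14 (SE 0.362, adjusted p = 0.788, edgeR) to -0.31 (adjusted p = 0.573, edgeR). Without shCon 3 it was -0.03 (adjusted p = 0.964, edgeR). The interval with all libraries ran from 0.646-fold to 1.89-fold. The spread between libraries was 22.5% of the mean in shCon and 47.1% in shSOX4, against 10.5% and 10.9% from counting error alone. JAG1 made up 4.56 ± 1.93% of the summed FPKM of both ligands in shCon and 5.73 ± 3.77% in shSOX4 (SD, n = 3; exact two-sided permutation p = 0.80), a difference that turned from 1.17 to -1.004 percentage points without shSOX4 3. DLL3, an inhibitory Delta-type ligand known as a surface marker of neuroendocrine tumours, was the gene of the wider ligand list with the smallest p, and it did not pass (8.62 ± 1.91 to 6.53 ± 1.65 CPM, SD, n = 3 per group; adjusted p = 0.235, edgeR).

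HES1, the repressor most often read as a sign of Notch activity, was low, with 74 to 108 counts a library. Its levels were 2.103, 1.99 and 3.09 CPM in shCon 1, 2 and 3 and 3.17, 3.10 and 3.13 CPM in shSOX4 1, 2 and 3. The groups did not overlap, as for 47.0% of all features in either direction, but shCon 3 lay just under the lowest shSOX4 library. The log2 fold change was 0.39 (SE 0.294, adjusted p = 0.324, edgeR), 1.31-fold with an interval from 0.847 to 2.02. Without shCon 3 it was 0.61 (adjusted p = 0.168, edgeR). The shSOX4 libraries differed among themselves by an SD of 1.17% of their mean, less than the 9.79% that counting error alone gives at this depth, so their closeness is no measure of precision.

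The wider list of 11 genes taken as targets came from general knowledge. Whether each responds to Notch in these cells was not tested. Of these genes, 8 had a row, of which 1 rose and 1 fell, 25% called against 32.8% of all features (median log2 fold change -0.25). HES7, a repressor of the segmentation clock, fell by 1.61 (log2), with 10.6 ± 2.14 CPM in shCon and 3.47 ± 1.11 CPM in shSOX4 (SD, n = 3 per group; adjusted p = 0.000625, edgeR). HES2, another HES family gene, rose by 1.25, with 1.17 ± 0.206 CPM in shCon and 2.79 ± 0.414 CPM in shSOX4 (SD, n = 3 per group; adjusted p = 0.00975, edgeR), and 2 of its 3 shCon libraries reached 1 CPM, the level at which features entered the table. Both kept their call without each library in turn. The number of targets down was 2 without shCon 1, without shCon 2 or with shCon 3 and shSOX4 1 both left out, and 3 with shSOX4 1 alone left out.

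Promoter sequence from RefSeq (GRCh38.p14) was matched for the 9 measured genes, at 13 transcription starts, 5 of them of RBPJ. The letters TGGGAA, the core that RBPJ binds, and ACAAAG or ACAATG, letters that SOX proteins bind, were searched on both strands of the 250 bases before each start. An RBPJ match was found at 2 of the 13 starts, those of HES1 and 1 of RBPJ itself, and at 20.8% of 35116 promoters in the annotation. A SOX match was found at 2 of the 13 starts, both of RBPJ, and at 21.2% of all promoters. The sequences below are the 250 bases before the start of NOTCH2, the member that changed, of HES1, and of HES2 and HES7, the called genes of the target list. They are printed 5′ to 3′ in the gene's direction with matches in capitals.
NOTCH2 (chr1:120069663-120069912, minus strand): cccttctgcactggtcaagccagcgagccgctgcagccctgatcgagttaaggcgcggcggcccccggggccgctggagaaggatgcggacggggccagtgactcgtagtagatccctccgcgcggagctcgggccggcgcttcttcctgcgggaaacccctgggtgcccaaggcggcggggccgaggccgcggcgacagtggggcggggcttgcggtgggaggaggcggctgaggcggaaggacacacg
HES1 (chr3:194135898-194136147, plus strand): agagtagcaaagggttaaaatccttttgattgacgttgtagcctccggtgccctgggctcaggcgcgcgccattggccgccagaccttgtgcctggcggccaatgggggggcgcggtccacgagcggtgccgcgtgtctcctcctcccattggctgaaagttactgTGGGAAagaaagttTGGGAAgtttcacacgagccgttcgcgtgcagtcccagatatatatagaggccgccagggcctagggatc
HES2 (chr1:6419920-6420169, minus strand): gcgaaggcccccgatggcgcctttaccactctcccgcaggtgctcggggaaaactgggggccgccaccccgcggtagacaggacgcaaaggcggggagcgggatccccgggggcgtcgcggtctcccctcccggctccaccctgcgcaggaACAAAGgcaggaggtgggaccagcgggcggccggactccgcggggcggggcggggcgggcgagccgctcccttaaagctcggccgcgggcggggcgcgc
HES7 (chr17:8124107-8124356, minus strand): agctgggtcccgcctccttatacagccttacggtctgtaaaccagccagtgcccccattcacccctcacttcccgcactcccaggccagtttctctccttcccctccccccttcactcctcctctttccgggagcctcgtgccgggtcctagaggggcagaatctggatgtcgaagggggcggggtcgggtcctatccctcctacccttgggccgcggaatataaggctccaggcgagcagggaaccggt
HES1 holds TGGGAA at 84 and again at 70 bases before its start, 14 bases apart and on the same strand. HES2 holds ACAAAG at 99 bases before its start and no RBPJ match, and the windows of NOTCH2 and HES7 hold none of these letters. Genes of the target list that did not pass hold matches too. HES4 and NRARP hold SOX letters, at 167 and 55 bases before their starts. HES4 and HEYL, like HES1, hold RBPJ letters, and CDKN1A holds neither. A match is a description of the letters in this window and was not tested for binding.

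The nuclear partners did not pass. RBPJ had 6.20, 6.34 and 7.70 CPM in shCon 1, 2 and 3 and 6.72, 12.0 and 8.13 CPM in shSOX4 1, 2 and 3. The groups overlapped, with shSOX4 2 highest (log2 0.41, SE 0.246, adjusted p = 0.216, edgeR). Without both shCon 3 and shSOX4 1 the value was 0.68 (adjusted p = 0.0255, edgeR), and without shSOX4 2 it was 0.14 (adjusted p = 0.751, edgeR). RBPJ is also the gene of the 9 whose counts and FPKM agree least: the ratio of count to FPKM, which should be constant apart from 1 factor per library, varied 1.76-fold for RBPJ and by at most 1.21-fold for the others. On log2(FPKM + 1), limma gave RBPJ a value of 0.06, with mean FPKM of 1.47 in shCon and 1.58 in shSOX4, levels at which the added 1 shrinks changes. MAML1 had 24.8, 20.5 and 27.3 CPM in shCon and 19.9, 22.7 and 22.8 CPM in shSOX4, with groups that overlap through shCon 2 (log2 -0.15, SE 0.187, adjusted p = 0.563, edgeR), and its interval ran from 0.683-fold to 1.19-fold. Without shCon 3 it was -0.05, without shSOX4 1 -0.08 and without shCon 2 -0.26 (adjusted p of 0.444 to 0.857 over the fits with a library removed, edgeR), and with shCon 3 and shSOX4 1 both left out it was 0.01.

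In the wider list of 9 nuclear activators, 2 of 8 with a row rose and none fell, 25% called against 32.8% of all features (1 rose without any single shCon library or shSOX4 3, 0 rose without shSOX4 2, and 1 fell without shSOX4 2). They were CREBBP, the histone acetyltransferase CBP, with 20.6 ± 1.99 CPM in shCon and 32.3 ± 5.74 CPM in shSOX4 (SD, n = 3 per group; log2 0.65, adjusted p = 0.0201, edgeR; 0.141 without shSOX4 2), and SNW1, the coactivator SKIP, up by 0.49 (adjusted p = 0.0455, edgeR), which passed in only 1 of 6 fits with a library removed. The 13 corepressors, which act at RBPJ sites when no Notch domain is bound or with HES proteins, moved both ways, 3 up and 5 down, or 23.1% and 38.5% against 17.0% and 15.8% of all features. SPEN, the corepressor that RBPJ recruits, rose by 0.79 (adjusted p = 0.0167, edgeR) and NCOR1, a scaffold for histone deacetylases, by 0.89 (adjusted p = 0.0114, edgeR). TLE1, a Groucho-type partner of HES proteins, fell by 0.78, with 52.4 ± 6.16 CPM in shCon and 30.5 ± 1.37 CPM in shSOX4 (SD, n = 3 per group; adjusted p = 0.00435, edgeR), and CTBP1, the C-terminal binding protein, by 0.61 (adjusted p = 0.0118, edgeR). Without shSOX4 2, 0 corepressors rose and 2 fell, and SPEN (adjusted p = 0.125, edgeR), NCOR1 (adjusted p = 0.0765, edgeR) and CTBP1 (adjusted p = 0.0804, edgeR) lost their calls. Leaving out shSOX4 1 gave 5 up, leaving out shCon 3 as well gave 6, and the number down was 3 without shCon 1, shCon 2 or shSOX4 1.

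NUMB, an endocytic adaptor that holds back Notch at the membrane, was the most abundant of the 9 genes per length, with 15.4 ± 3.37 FPKM in shCon and 12.6 ± 1.11 FPKM in shSOX4 (SD, n = 3 per group). It had 60.7, 63.4 and 46.9 CPM in shCon 1, 2 and 3 and 44.3, 48.1 and 49.0 CPM in shSOX4 1, 2 and 3. The first 2 shCon libraries stood above all others and shCon 3 lay inside the shSOX4 range. The log2 fold change of -0.27 did not pass (SE 0.177, adjusted p = 0.246, edgeR), with an interval from 0.636-fold to 1.07-fold.

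The genes around NUMB in the pathway, 13 of receptor traffic and ubiquitin ligation, had 3 up and 2 down, 38.5% called against 32.8% of all features (1 down without shCon 3, shSOX4 2 or shSOX4 3). NEURL1, a ubiquitin ligase of the Neuralized family, known in flies for the endocytosis of Notch ligands, had the largest fold change of the 62 pathway genes measured. It rose, with 1.87 ± 0.867 CPM in shCon and 13.9 ± 1.26 CPM in shSOX4 (SD, n = 3 per group; log2 2.90, SE 0.297, adjusted p = 7.92e-06, edgeR), and by 2.67 to 3.34 without each library in turn. Genes of the Deltex ubiquitin ligases, a family named for its action on Notch in flies, went apart: DTX4 rose to 25.2 ± 1.22 CPM from 10.5 ± 1.25 (log2 1.27, adjusted p = 0.000252, edgeR), while DTX3 fell by 0.87 to 17.0 ± 0.718 CPM from 31.04 ± 4.36 (adjusted p = 0.00334, edgeR) and DTX2 fell by 0.66 (adjusted p = 0.0188, edgeR), the last a call lost without shCon 3, shSOX4 2 or shSOX4 3. The other Deltex gene of the list, DTX1, did not pass (-0.46, adjusted p = 0.324, edgeR).

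Among 6 enzymes that put sugars on Notch receptors, 5 had a row, 2 rose and 1 fell, so 3 of 5 were called where 32.8% of all features were. LFNG, Lunatic fringe, which extends O-fucose and so alters the response to Jagged and Delta ligands, rose, with 0.974 ± 0.362 CPM in shCon and 2.78 ± 0.580 CPM in shSOX4 (SD, n = 3 per group; log2 1.51, adjusted p = 0.00678, edgeR). Its shCon levels were 0.964, 0.618 and 1.34 CPM. In CPM scaled to total counts alone, 2 shCon and 3 shSOX4 libraries reached 1 CPM, the level at which features entered the table. POGLUT1, the O-glucosyltransferase, rose by 1.29 (adjusted p = 0.0118, edgeR; 0.0705 without shSOX4 3, where 1 enzyme rose). POFUT1, the O-fucosyltransferase that fringe enzymes build on, fell by 0.44, to 121 ± 8.96 CPM from 164 ± 2.13 (adjusted p = 0.0369, edgeR), and passed in only 1 of 6 fits with a library removed. Without shCon 1, shCon 2, shSOX4 2 or shSOX4 3, no enzyme of this list fell. Of the 9 genes of receptor cleavage, furin, the ADAM proteases and the gamma-secretase subunits, none passed, and all log2 fold changes lay between -0.45 and 0.48. The protease ADAM10, which makes the first ligand-induced cut, had the smallest p, with 21.1 ± 2.54 CPM in shCon and 29.5 ± 3.62 in shSOX4 (SD, n = 3 per group; adjusted p = 0.0606, edgeR; 0.0306 by DESeq2). Of the cleavage genes, 1 was up without shCon 3, and 2 were up with shCon 3 and shSOX4 1 both left out. Of the same genes, 1 was down without shCon 1, without shSOX4 1, or with shCon 3 and shSOX4 1 both left out. Under total-count scaling 2 were down, and 1 was down without newGene loci and with limma on log2(FPKM + 1).

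**Figure D3:**
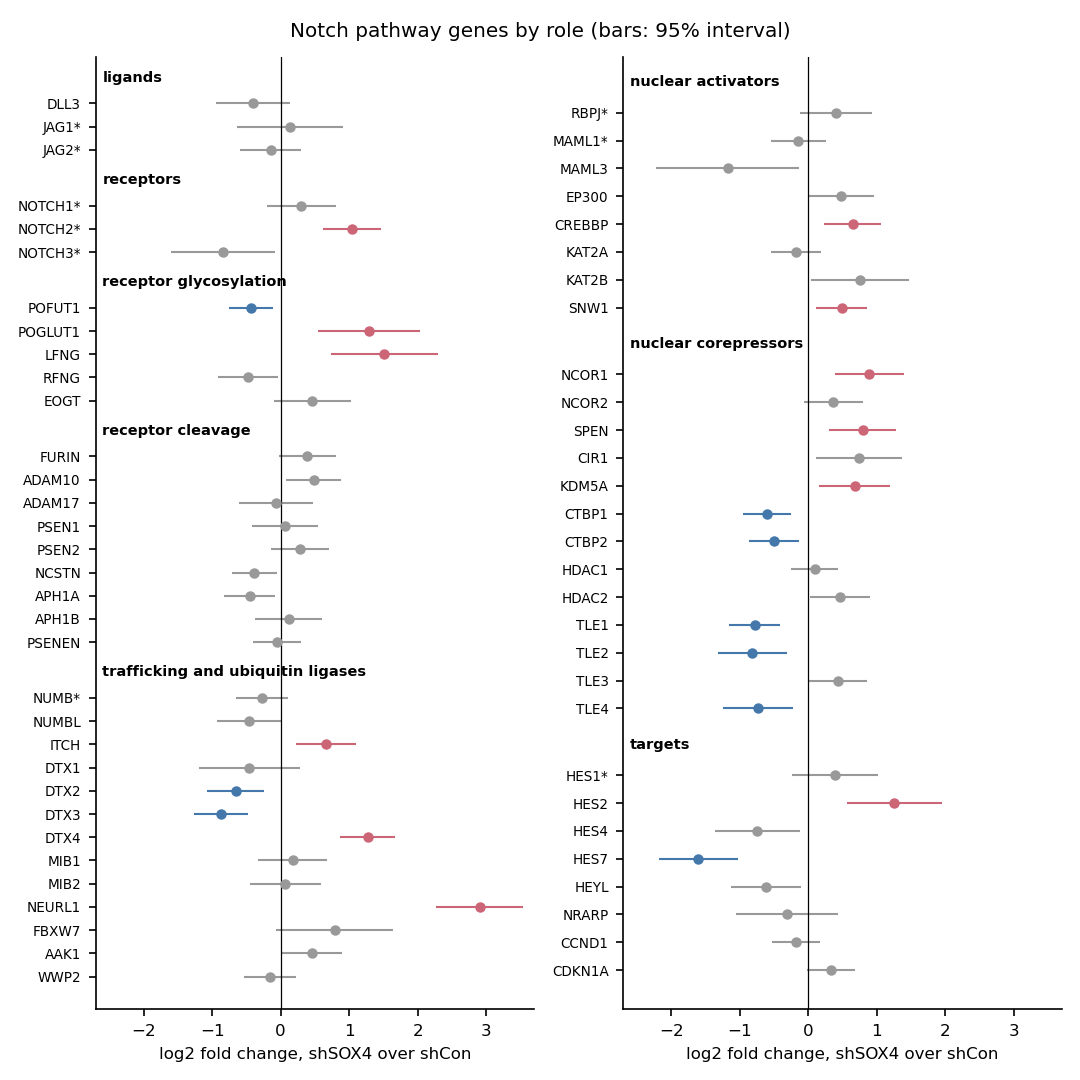
Log2 fold change of shSOX4 over shCon (horizontal axis) with its 95% interval for the 62 measured Notch pathway genes by role, with asterisks on the 9 genes chosen by name. Red marks genes that rose (12), blue those that fell (9) and grey those that did not pass. NEURL1 lies farthest to the right at 2.90 and HES7 farthest to the left at -1.61.

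Over all 8 role lists, 62 of 70 genes had a row, 12 rose and 9 fell. Scaled to total counts alone, 56 of the 62 had 1 CPM or more in all 6 libraries. The 33.9% called are close to the 32.8% called among all features, and the median log2 fold change was 0.10 against -0.01 over all features. Without shSOX4 2 the numbers were 6 up and 5 down. Without both shCon 3 and shSOX4 1 they were 18 up and 12 down, and all 21 genes called with 6 libraries were among these 30. These libraries are the ones that the second component of the same data set apart. Over all features, 5532 were called without them and 4431 with 6 libraries. The remaining libraries are part of the 6, so the shared calls are no separate support.

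NOTCH2 had the smallest adjusted p of the 9 genes, and the genes whose log2 CPM ran most nearly parallel to it over the 6 libraries were found among 11869 other protein-coding genes. They were KIAA1549 (Pearson r = 0.9986), the RNA helicase gene DDX46 (0.9985) and PALLD, which encodes the actin-binding protein palladin (0.9982). With 2 groups of 3 libraries that differ in NOTCH2, these values are a description and mostly carry the group difference. KIAA1549 had 7.22 ± 1.27 CPM in shCon and 14.9 ± 2.55 CPM in shSOX4 (SD, n = 3 per group), DDX46 had 6.76 ± 1.37 and 14.0 ± 1.99 CPM, and PALLD had 19.0 ± 2.64 and 32.0 ± 3.28 CPM.

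**Figure D4:**
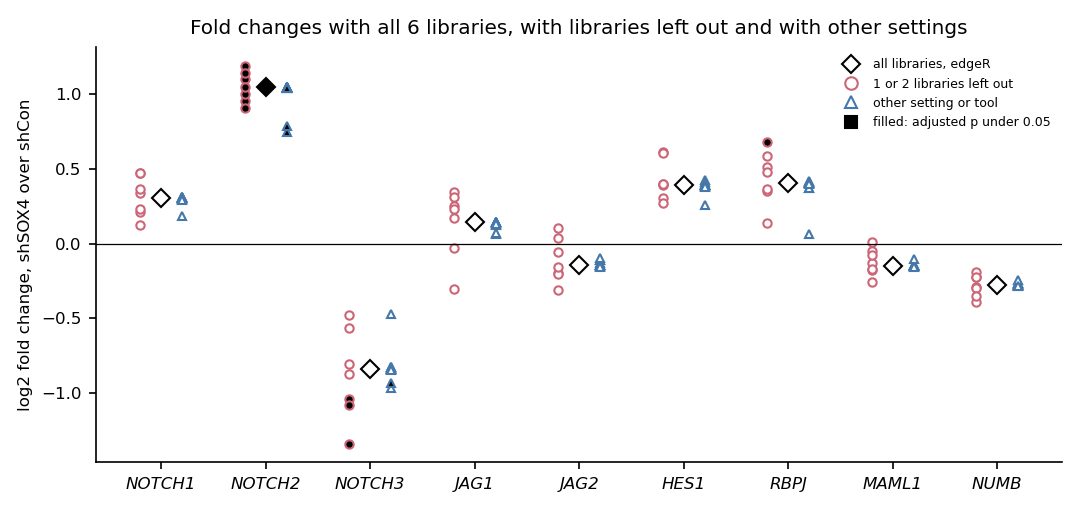
Log2 fold change of shSOX4 over shCon (vertical axis) of the 9 Notch genes with all 6 libraries (diamonds), with 1 or 2 libraries left out (circles) and under other scalings, filters, units or tools (triangles); filled symbols have an adjusted p under 0.05. NOTCH2 is filled throughout, from 0.75 to 1.19, NOTCH3 spans -1.34 to -0.47 with 4 filled symbols, and JAG1, JAG2 and MAML1 cross 0.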

How the data were processed

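RNA-seq of 3 shCon and 3 shSOX4 libraries came as 1 table, whose columns NC 1 to 3 were taken as shCon 1 to 3 and SH 1 to 3 as shSOX4 1 to 3. Counts as deposited by the authors are whole numbers, not normalized, and deposited FPKM are scaled to length and library size by the authors, per the file headers. The authors' own adjusted p-value and log2 fold change are deposited too, by a tool not given in the sources used here. For the 9 Notch genes their adjusted p-values nearly equal those of DESeq2 run here (for NOTCH2, 2.54e-06 against 2.55e-06 by DESeq2). The deposited values are therefore not separate support. Tools listed in the submitters' processing notes, with no role, are HISAT2, STAR, Bowtie2, MACS2 2.1.1 and deepTools 2.07, and the build is hg19. Counting program, strand setting and annotation were not given in the sources used here, so overlapping antisense genes cannot be told apart. Every feature had at least 1 CPM, here scaled to total counts alone, in at least 3 libraries. Ratios of count to FPKM stayed within 5% for 48.4% of features and for 6 of the 9 Notch genes.

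Tests used edgeR 4.0.16 in R 4.3.3 (TMM, filterByExpr, which removed no feature, quasi-likelihood F test, two-sided, group only) on all 13527 features. Scripts were tested on simulated data. Log2 CPM used a prior count of 2. Alternatives were RLE and total-count scaling, other filters, DESeq2 1.42.0, limma-voom, limma 3.58.1 on log2(FPKM + 1) for features averaging at least 1 FPKM, a test against 1.5-fold, the replicate block, no newGene loci and leaving out libraries. The sum of NOTCH2 and NOTCH2NLA was added after seeing the data, and the ratio of NOTCH2 to NOTCH3 was not among the planned tests. The genes, lists and tests were chosen with earlier results of these data known. Named pathway genes were, for each role, up to 4 called genes with the smallest adjusted p, or the single smallest. No label says that libraries are separate cultures: p-values reflect the spread among these libraries, possibly technical. Chi-square per degree of freedom was 28.8 to 139 within groups, so no library was a duplicate. Intervals of 95% come from the fit.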

Additional observations from a re-analysis of the deposited data

How the results depend on the processing

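NOTCH2 kept its direction and its call in all 18 alternatives. Its lowest value, 0.75, came with limma on log2(FPKM + 1). The added 1 shrinks changes at low FPKM, and mean NOTCH2 FPKM was 1.68 in shCon and 3.51 in shSOX4. NOTCH1, HES1 and NUMB kept their direction without passing in any of 17. The cause was not tested for any change given here.

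Leaving out 1 library gave -1.02 to -0.71 for SOX4, -1.34 to -0.48 for NOTCH3, -0.31 to 0.35 for JAG1 and -0.31 to 0.10 for JAG2. Features changed then numbered 2509 to 4966, with 1411 to 2653 up and 1098 to 2313 down, and pathway genes 11 to 26, with 6 to 14 up and 5 to 12 down. The JAG1 share of the ligands then differed by -1.0 to 2.37 percentage points.

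Without both shCon 3 and shSOX4 1, 5532 features were called, against 4431 with 6 libraries. In that fit NOTCH3 (-1.08) and RBPJ (0.68) passed, and JAG2 (0.0358) and MAML1 (0.00968) changed sign without passing. In the test against a 1.5-fold change, SOX4 (-0.89) lost its call (adjusted p = 0.208, edgeR), 1195 features passed (782 up, 413 down) and 5 pathway genes (4 up, 1 down). With limma on log2(FPKM + 1), which shrinks changes at low FPKM and leaves out genes averaging under 1 FPKM, 5 pathway genes rose. JAG1, with a mean FPKM under 1, was not run there.

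Replicate numbers are shared by the groups, but deviations of same-numbered libraries correlated at -0.29, 0.16 and -0.29 for numbers 1, 2 and 3, so the numbers do not pair the libraries, and no library correlated best with its own number. With the replicate number as a block NOTCH3 was -0.93 (adjusted p = 0.0209, edgeR), and 16 pathway genes were called. Under the block CREBBP (0.64, adjusted p = 0.065, edgeR), SNW1 (0.49, adjusted p = 0.141, edgeR) and POFUT1 (-0.44, adjusted p = 0.145, edgeR) did not pass, leaving 0 nuclear activators up and 1 down, no glycosylation enzyme down and 3 corepressors down.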
